A study of Mus musculus with 20 samples.

Results

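The transcripts of 10 circadian clock genes were followed in skeletal muscle of 20 mice: Arntl (also called Bmal1), Clock, Npas2, Dbp, Tef, Nr1d1, Nr1d2, Per1, Per2 and Per3. Their probe sets were taken by name alone, as every probe set whose only gene symbol in the platform annotation is one of these. The genes are 10 of the 12393 that the array measures with such a probe set, and they were chosen with earlier results of these data known. Together they have 19 probe sets, of which 13, for 8 genes, were bright enough to be tested. Both probe sets of Npas2, both of Per2, 1 of Tef (1438033_at) and 1 of Per3 (1421086_at) were too dim for the main test. Npas2 and Per2 are described by their levels, and Per2 and this Tef probe set by a fit that kept dim probe sets.

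Each mouse gave 1 biotin-labelled array, and the sample titles place 5 mice in each of 4 groups: transgenic trained (TG trained, titles beginning TGT), transgenic untrained (TG untrained, TGUT), wild-type trained (WT trained, WTT or wtt) and wild-type untrained (WT untrained, WTUT). The transgenic mice over-express MHC-I, which the labels do not spell out, and training was endurance training. The strain, the construct and the promoter that drives it, the muscle, the sex, the age, the training protocol, the time since the last bout and the time of day at sampling are stated by none of the labels. A separate description field of the samples calls mice of every group transgenic and trained; it conflicts with the titles and was not used.

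The 7 markers of muscle fibres, such as Ckm and Acta1, were all tested, and their summed intensity in single mice ran from 107168 to 115013, so every array carries the profile of skeletal muscle. The brightest probe set of H2-K1, a class I histocompatibility heavy chain, ran from 737 to 1750 intensity units in TG trained, 831 to 1299 in TG untrained, 890 to 1753 in WT trained and 784 to 1559 in WT untrained mice. The groups overlapped, and the transgenic minus wild-type difference averaged over training was -0.12 ± 0.15 log2 (SE; limma adjusted p = 0.724); whether this probe set detects the transgene is not known from the files. H2-D1, a related heavy chain, gave -0.10 ± 0.16 (adjusted p = 0.777). Empty cells numbered 822 on the array of wtt-137 and 386 on that of TGT-133, and far fewer on the other 18. An array has no read depth, and precision is set by the number of mice.

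In the molecular clock of mammals, the proteins of Arntl and Clock, or of Npas2 in place of Clock, pair up and switch on genes that carry E-boxes in their control regions. Among these are the Per genes, whose products return to the nucleus and block the pair, and Nr1d1 and Nr1d2 (REV-ERBs), nuclear receptors that repress Arntl through response elements shared with the ROR receptors. Dbp and Tef encode PAR bZip factors that carry the rhythm to output genes through D-boxes. In mouse tissues the transcript of Arntl is known to peak around the time when those of Dbp, Nr1d1 and the Per genes are near their trough, so that a single sample taken at an unknown hour reads a phase as well as a level.

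The sequences before the gene starts are shown here because the members are grouped by the elements through which the clock acts. RefSeq windows of 250 bases before an annotated start (build GRCm38.p6) matched 9 of the 10 genes, with 14 windows in all; Per2 had none. Each was searched on both strands for the E-box CACGTG (which reads alike on both strands), the D-boxes TTATGTAA and TTACGTAA, and the ROR and REV-ERB core TAGGTCA; the motifs do not overlap one another here. Of 32851 mouse windows of this length, 6.02% hold the E-box, 0.931% a D-box and 2.23% the core. The 4 windows with a match are printed 5′ to 3′ on the gene's strand, with matches in capitals.
Tef, chr15:81802423-81802672, plus strand: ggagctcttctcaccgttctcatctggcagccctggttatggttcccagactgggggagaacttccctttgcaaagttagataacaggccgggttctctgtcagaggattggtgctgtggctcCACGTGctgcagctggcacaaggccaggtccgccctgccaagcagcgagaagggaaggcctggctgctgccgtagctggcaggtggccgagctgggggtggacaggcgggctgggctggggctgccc
Tef, chr15:81811164-81811413, plus strand: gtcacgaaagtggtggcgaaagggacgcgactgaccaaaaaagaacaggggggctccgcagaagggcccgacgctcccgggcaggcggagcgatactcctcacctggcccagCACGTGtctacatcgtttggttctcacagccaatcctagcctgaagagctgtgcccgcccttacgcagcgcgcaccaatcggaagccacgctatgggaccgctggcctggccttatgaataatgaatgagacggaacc
Per1, chr11:69098699-69098948, plus strand: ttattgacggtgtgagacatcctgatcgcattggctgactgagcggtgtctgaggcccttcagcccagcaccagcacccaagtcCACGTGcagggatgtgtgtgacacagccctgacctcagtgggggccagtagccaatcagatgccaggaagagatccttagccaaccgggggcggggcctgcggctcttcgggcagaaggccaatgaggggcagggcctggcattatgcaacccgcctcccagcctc
Per3, chr4:151044666-151044915, minus strand: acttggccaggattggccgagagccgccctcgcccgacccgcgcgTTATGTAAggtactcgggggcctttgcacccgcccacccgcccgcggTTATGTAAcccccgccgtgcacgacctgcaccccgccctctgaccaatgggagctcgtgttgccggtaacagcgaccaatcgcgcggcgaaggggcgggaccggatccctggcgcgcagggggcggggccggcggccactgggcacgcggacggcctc
Counted from 1 at the 5′ end of the window, the E-box begins at base 124 of the first Tef window, 113 of the second and 85 of that of Per1, and the 2 D-boxes of Per3 begin at bases 46 and 93. The other 10 windows, among them those of Arntl, Dbp, Nr1d1 and Nr1d2, hold none of these letters, which says nothing of elements elsewhere in those genes. A match is a description of the sequence.

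Among the activators, Arntl was lower in trained than in untrained mice. Its intensity was 62.2, 164, 92.4, 89.9 and 77.4 in TG trained mice, 305, 259, 133.2, 256 and 292 in TG untrained mice, 114, 157, 58.8, 368 and 261 in WT trained mice, and 266, 486, 228, 222 and 522 in WT untrained mice. In transgenic mice 4 of the 5 untrained animals lay above every trained one, and the exception, TGUT-145 with 133.2, lay below the trained mouse TGT-132. In wild-type mice WTT-141 and WTT-144 reached the untrained range, while the other 3 trained mice lay below it. From lowest to highest, the group means were TG trained (97.2 ± 39.2, SD, n = 5), WT trained (192 ± 123), TG untrained (248.95 ± 68.0) and WT untrained (345 ± 147.1), and mice of neighbouring groups in this order overlapped.

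Averaged over genotypes, the trained minus untrained difference of Arntl was -0.84 ± 0.20 log2 (SE; limma adjusted p = 0.0250). It is 1 of 2 clock probe sets of 13 called in this comparison, both lower in trained mice; among all 13576 probe sets 4.99% were called in either direction and 2.59% as lower. Less transcript per cell and fewer cells that carry it cannot be told apart in whole muscle. The adjusted p of Arntl was 0.0536 without TGT-128, 0.0511 without TGUT-131, 0.0536 without WTUT-135 and 0.0514 without the 2 arrays rich in empty cells; the differences there ran from -0.80 to -0.72, and with any other single mouse left out it was still called. The difference was -0.94 ± 0.29 in transgenic mice (adjusted p = 0.101) and -0.73 ± 0.29 in wild-type mice (adjusted p = 0.483), and the interaction was -0.21 ± 0.40 (adjusted p = 0.9999), so no difference between the genotypes was resolved. Without TGUT-145 the difference in transgenic mice was -1.10 (adjusted p = 0.0334). The transgenic minus wild-type difference, averaged over training, was -0.45 ± 0.20 (adjusted p = 0.260).

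Clock, the partner of Arntl, gave different readings on its 2 probe sets. On 1418659_at the intensity was 141.3, 127, 162, 142.6 and 119 in TG trained mice, 201, 225, 180, 102 and 215 in TG untrained mice, 123, 140.1, 115, 144.5 and 118 in WT trained mice, and 172, 190, 170, 154 and 250 in WT untrained mice. All 5 WT trained mice lay below all 5 WT untrained mice (exact permutation p = 0.00794, the smallest that 5 against 5 allows), as 1.0% of all probe sets did in that comparison. In transgenic mice a single untrained animal, TGUT-146 with 102, fell below the trained range. The averaged training difference was -0.32 ± 0.08 (SE; limma adjusted p = 0.0357). On 1418660_at it was -0.04 ± 0.05 (adjusted p = 0.714), with group medians of 202, 213, 181 and 195 in TG trained, TG untrained, WT trained and WT untrained mice.

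The call on 1418659_at is narrow. It was lost when any one of 12 mice was left out (TGT-128, TGT-132, TGT-140, TGT-143, TGUT-131, TGUT-139, TGUT-147, WTT-129, wtt-137, WTUT-130, WTUT-135 or WTUT-142), with adjusted p between 0.0505 and 0.0711 and differences between -0.33 and -0.28. Across mice, after removal of the group means, the 2 Clock probe sets had r = -0.26 (rho = -0.23, permutation p = 0.377), so they do not track each other. Npas2, which can take the place of Clock, was dim on both of its probe sets: single mice ran from 63.1 to 78.2 on 1421036_at and from 52.6 to 77.8 on 1421037_at, at about the level of the constant of 66.7 added before logs were taken.

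**Figure D1:**
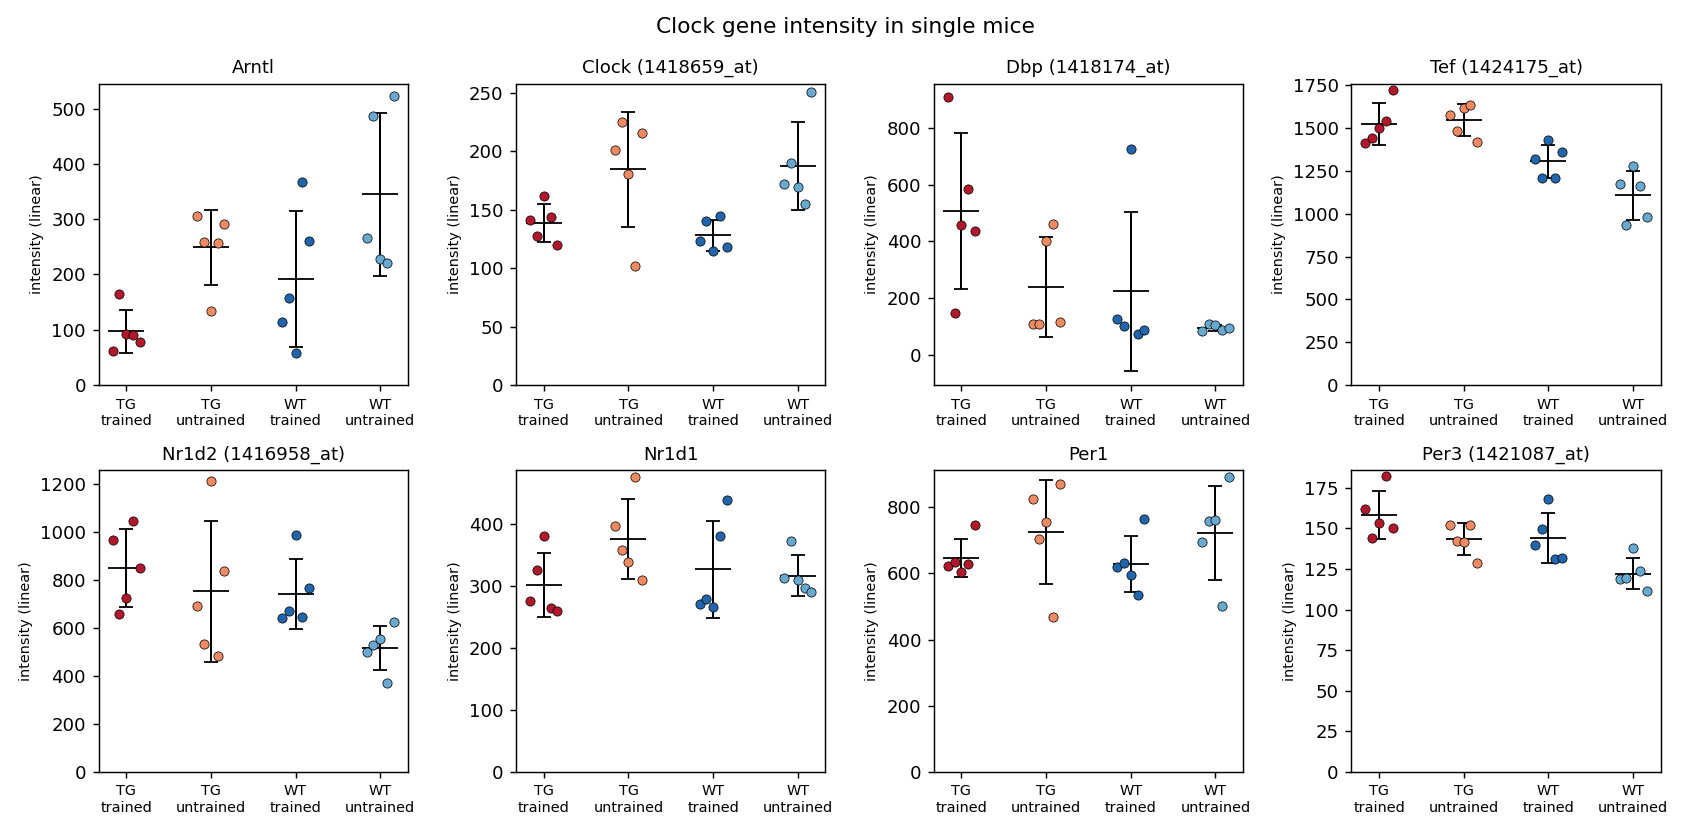
Intensity (linear scale) of 8 clock genes in single mice, 1 panel per gene; points are mice, horizontal bars group means and error bars 1 SD (n = 5 per group). Dbp lies between 403 and 910 in 7 mice and between 74.0 and 145.9 in 13. The Tef values of TG untrained mice lie above those of WT untrained mice, as 0.722% of all probe sets did.

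Of the outputs, Dbp varied most. Probe set 1418174_at read 910, 145.9, 458, 586 and 439 in TG trained mice, 109, 109, 403, 461 and 114 in TG untrained mice, 127, 100, 727, 74.0 and 87.2 in WT trained mice, and 83.0, 108, 103, 86.7 and 92.5 in WT untrained mice. The values fell into 2 separate sets, with no mouse between 145.9 and 403. The upper set held 7 mice, which were 4 of 5 TG trained (all but TGT-132), 2 of 5 TG untrained (TGUT-145 and TGUT-146), 1 of 5 WT trained (wtt-137) and 0 of 5 WT untrained mice. The lower set held the other 13, and the highest mouse stood 12.3-fold above the lowest.

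The second Dbp probe set, 1438211_s_at, placed the same 7 mice highest, between 319 and 702 (all others at 100.3 or less). The group means of 1418174_at were 508 ± 277 in TG trained, 239 ± 177 in TG untrained, 223 ± 283 in WT trained and 94.6 ± 10.6 in WT untrained mice (SD, n = 5 each), so in 3 of the 4 groups the SD was over 50% of the mean. All 5 TG untrained mice lay above all 5 WT untrained mice on this probe set (exact permutation p = 0.00794; 0.722% of all probe sets lay all above in this comparison), though 3 of them by little: 109, 109 and 114 against at most 108. On 1438211_s_at the same groups overlapped (exact permutation p = 0.0714).

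No comparison of Dbp passed the limma test. The transgenic minus wild-type difference averaged over training was 0.97 ± 0.31 log2 (SE; adjusted p = 0.124) and the trained minus untrained difference averaged over genotypes was 0.71 ± 0.31 (adjusted p = 0.206). Mouse wtt-137 decides the first of these: without it the difference was 1.20 ± 0.25 (adjusted p = 0.0147), and 1.17 ± 0.26 on 1438211_s_at (adjusted p = 0.0188). Within trained mice the transgenic difference was 1.20 ± 0.45 (adjusted p = 0.296), and 1.66 ± 0.36 without wtt-137 (adjusted p = 0.0405). Within transgenic mice the training difference was 0.94 ± 0.45 (adjusted p = 0.283).

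Tef was higher in transgenic mice on both tested probe sets. Probe set 1424175_at read 1410, 1443, 1499, 1539 and 1720 in TG trained mice, 1577, 1484, 1620, 1632 and 1419 in TG untrained mice, 1319, 1211, 1429, 1208 and 1360 in WT trained mice, and 1174, 933, 1278, 1164 and 982 in WT untrained mice. Every TG untrained mouse lay above every WT untrained mouse, 1419 at the lowest against 1278 at the highest (exact permutation p = 0.00794), and 1450184_s_at separated the same groups. Of all probe sets 0.722% lay all above in this comparison. Among trained mice there was overlap in a single animal, wtt-137 with 1429, which lay above TGT-128 with 1410.

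Averaged over training, the transgenic difference of Tef was 0.34 ± 0.06 log2 on 1424175_at (SE; limma adjusted p = 0.00581) and 0.40 ± 0.08 on 1450184_s_at (adjusted p = 0.0163). These are the 2 of 13 clock probe sets called in that comparison, both higher; among all probe sets 1.23% were called in either direction and 0.324% as higher. Both calls held with each of the 20 mice left out in turn, with adjusted p up to 0.0171 and 0.0398. The dim probe set 1438033_at gave 0.10 ± 0.03 in a fit without the filter (adjusted p = 0.212).

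Split by training, Tef differed by 0.47 ± 0.08 in untrained mice (limma adjusted p = 0.0258 on 1424175_at, the only clock probe set called there, against 0.11% of all probe sets in either direction and 0.0147% as higher) and by 0.21 ± 0.08 in trained mice (adjusted p = 0.307). The first call was lost without TGUT-131, TGUT-139, TGUT-146, WTUT-135, WTUT-138 or WTUT-142, with adjusted p between 0.0532 and 0.0750 and differences between 0.41 and 0.49, and it reached 0.277 when only the compared groups were fitted. The interaction was -0.26 ± 0.11 (unadjusted p = 0.0376, adjusted p = 0.9999). The training difference of Tef was -0.02 ± 0.08 in transgenic mice (adjusted p = 0.929) and 0.23 ± 0.08 in wild-type mice (adjusted p = 0.390). Among transgenic mice 0 of 13 clock probe sets were called by limma for training, against 0.309% of all probe sets, and 5 had an unadjusted p under 0.05, against 17.4% of all. Among trained mice 0 were called for the transgene, against 0.0516% of all, and 4 had such an unadjusted p, against 12.5%. Among wild-type mice 0 were called for training, against 0.0% of all, and 5 had such an unadjusted p, against 7.87%. For the interaction 0 were called, against 0.0% of all, and 1 had such an unadjusted p, against 2.91%.

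**Figure D2:**
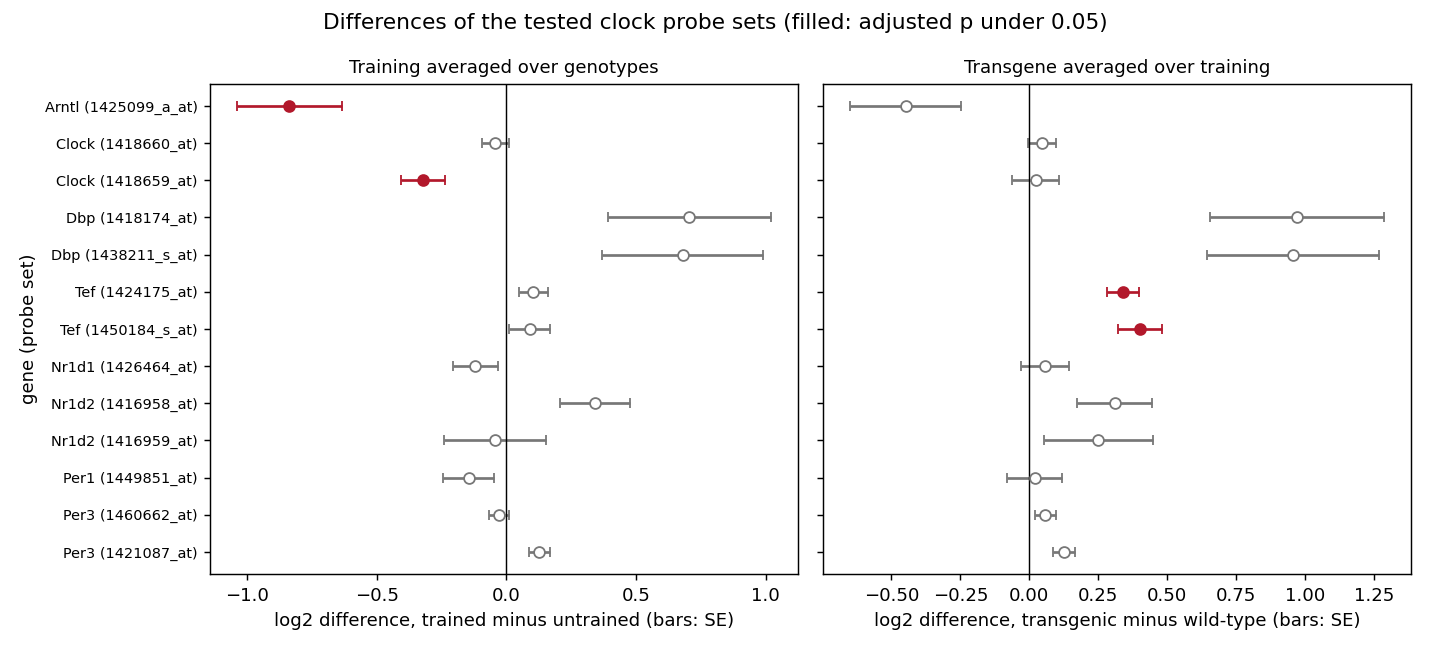
Log2 differences of the 13 tested clock probe sets, trained minus untrained averaged over genotypes (left) and transgenic minus wild-type averaged over training (right), with SE bars; filled points have an adjusted p under 0.05 in limma. Arntl at -0.84 and Clock 1418659_at at -0.32 are filled on the left and both Tef probe sets, at 0.34 and 0.40, on the right, while the Dbp points lie farther right with wide bars.

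The REV-ERB genes did not pass the test in any comparison. Nr1d2 on 1416958_at read 969, 658, 727, 1045 and 851 in TG trained mice, 694, 535, 1216, 483 and 837 in TG untrained mice, 643, 669, 987, 646 and 768 in WT trained mice, and 501, 528, 554, 371 and 624 in WT untrained mice. All 5 WT trained mice lay above all 5 WT untrained mice (exact permutation p = 0.00794), as 1.83% of all probe sets did, and the highest WT trained value was again that of wtt-137. The transgenic groups overlapped widely, with TGUT-145 above every other mouse at 1216. The averaged training difference was 0.34 ± 0.13 log2 (SE; limma adjusted p = 0.145) and became 0.43 ± 0.11 (adjusted p = 0.0242) without TGUT-145. The averaged transgenic difference was 0.31 ± 0.13 (adjusted p = 0.245).

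The other Nr1d2 probe set, 1416959_at, gave an averaged training difference of -0.04 ± 0.20 (limma adjusted p = 0.936). Its group medians were 378, 433, 266 and 277 in TG trained, TG untrained, WT trained and WT untrained mice, and single mice ran from 158 to 586. After removal of the group means its correlation with 1416958_at across mice was r = -0.27 (rho = -0.29, permutation p = 0.263). In a further look at all 78 pairs of tested probe sets, chosen after the data were seen, it went with Clock 1418660_at instead (r = 0.83, rho = 0.82, adjusted permutation p = 0.00273, r = 0.75 without the 2 farthest mice). Nr1d1 read 276, 326, 380, 265 and 260 in TG trained mice, 397, 358, 339, 475 and 309 in TG untrained mice, 272, 279, 266, 381 and 439 in WT trained mice, and 313, 373, 310, 297 and 290 in WT untrained mice. All 4 groups overlapped, and the averaged differences were -0.12 ± 0.09 for training (adjusted p = 0.477) and 0.06 ± 0.09 for the transgene (adjusted p = 0.763).

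Of the Period genes, which encode the repressors of the Arntl and Clock pair, Per1 passed the test in none of the 7 comparisons. It read 622, 635, 604, 627 and 748 in TG trained mice, 824, 704, 754, 467 and 871 in TG untrained mice, 620, 632, 594, 534 and 766 in WT trained mice, and 696, 758, 762, 502 and 891 in WT untrained mice. The groups overlapped, and each of the untrained groups held 1 low mouse, TGUT-146 with 467 and WTUT-138 with 502. The averaged training difference was -0.15 ± 0.10 log2 (SE; limma adjusted p = 0.451) and the transgenic one 0.02 ± 0.10 (adjusted p = 0.933).

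Per3 on 1421087_at read 162, 143.9, 154, 182 and 150 in TG trained mice, 152, 142.5, 141.8, 152 and 128.8 in TG untrained mice, 140.1, 150, 168, 131.2 and 131.6 in WT trained mice, and 119, 120, 137.7, 124 and 112 in WT untrained mice. Its averaged differences were 0.13 ± 0.04 for training (limma adjusted p = 0.0703) and 0.12 ± 0.04 for the transgene (adjusted p = 0.119). Quantile normalization brought the training difference past the threshold (adjusted p = 0.0467). Leaving out a single mouse brought each past the threshold: without WTT-144 the training difference was 0.14 (adjusted p = 0.0474), and without wtt-137 the transgenic one was 0.14 (adjusted p = 0.0400). The other tested Per3 probe set, 1460662_at, gave -0.03 ± 0.04 for training (adjusted p = 0.766) and 0.06 ± 0.04 for the transgene (adjusted p = 0.466).

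Per2 was dim and was left out of the main test. Probe set 1417602_at averaged 113 ± 24.0 in TG trained, 92.2 ± 18.1 in TG untrained, 87.8 ± 5.12 in WT trained (4 mice, with an empty cell for wtt-137) and 74.9 ± 10.6 in WT untrained mice (SD). Probe set 1417603_at averaged 121 ± 32.4, 117 ± 34.3, 94.6 ± 30.3 and 89.4 ± 18.01 in the same order. In a fit without the filter the transgenic difference was 0.18 ± 0.06 (limma adjusted p = 0.181) and 0.22 ± 0.10 (adjusted p = 0.305) on these probe sets.

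Mice of the same group differed far more in some clock genes than in others. The within-group SD on the log2 scale was 0.77 for Dbp 1418174_at, which is percentile 99.7 of the 13576 tested probe sets, and 0.49 for Arntl, at percentile 98.3. Nr1d2 followed with 0.33 on 1416958_at (percentile 94.5) and 0.48 on 1416959_at (percentile 98.2). Per1 lay at percentile 87.2 and Nr1d1 at 82.0. The probe sets of Clock lay at 40.9 (1418660_at) and 81.6 (1418659_at), and those of Tef at 46.1 (1424175_at) and 77.3 (1450184_s_at). The tested Per3 probe sets, near the dim end, lay at 13.6 and 15.7. Arntl spanned 8.88-fold between the lowest and highest mouse, and Tef 1424175_at 1.84-fold.

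**Figure D3:**
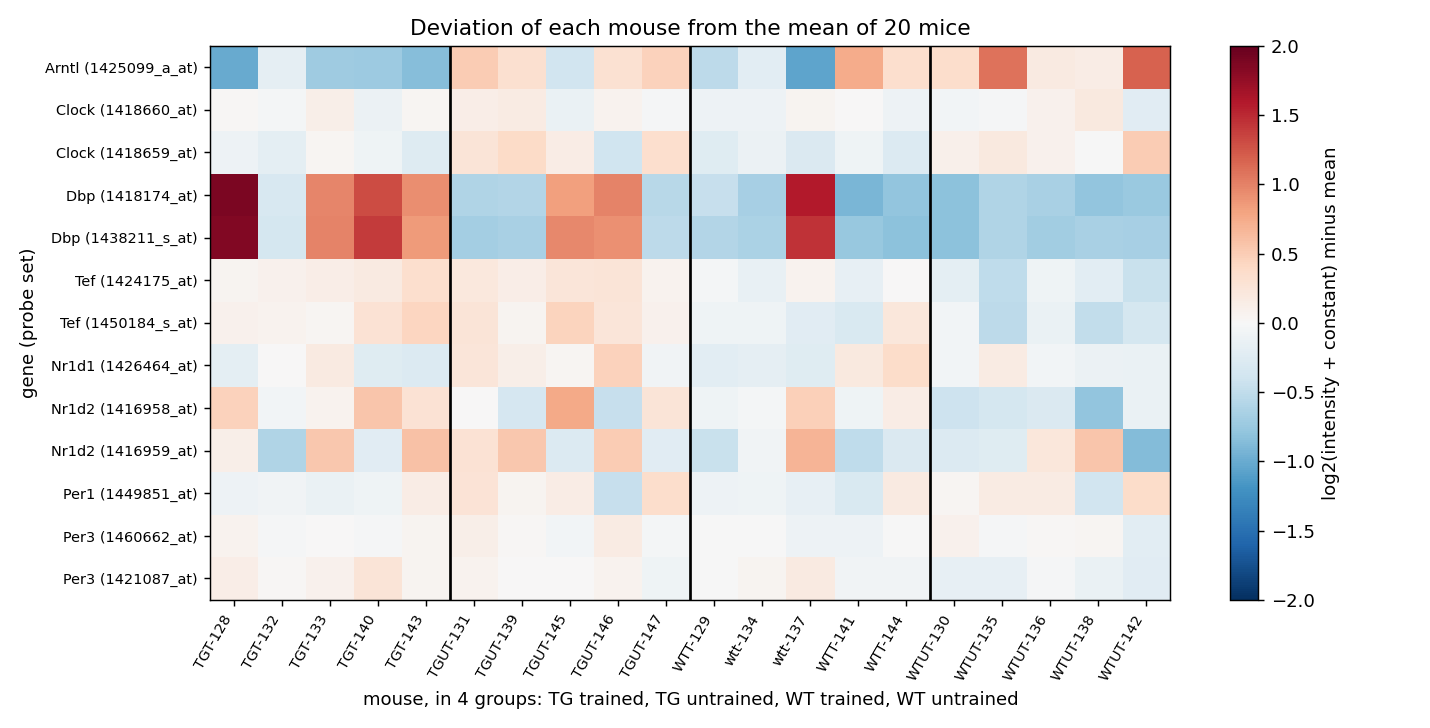
Deviation of each mouse (columns) from the mean over 20 mice for each tested clock probe set (rows), in log2 units on a scale from -2 to 2; black lines separate TG trained, TG untrained, WT trained and WT untrained mice. Mice with high Dbp mostly have low Arntl, wtt-137 among them, and every WT untrained mouse has Dbp below and Arntl above its mean.

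Of the genes named above as opposite in phase to Arntl, Dbp was set beside it in single mice. Among the others, Nr1d1 (r = 0.56) and Per1 (r = 0.22) went with Arntl within groups, not against it. Per3 went against it (r = -0.27 on 1460662_at and -0.61 on 1421087_at). None of these passed after adjustment, so the values of Arntl and Dbp describe 1 pair and not the phase of the whole clock. In 16 of 20 mice Arntl and Dbp deviated in opposite directions from their means over all mice, with group differences left in. The 4 others were TGT-132, WTT-129 and wtt-134, with both genes low, and TGUT-146, with both high. Dbp lay below its mean in all 13 mice of its lower set, and every WT untrained mouse counted as opposite. How many opposite mice such levels give without a relation was not computed, so the count is a description. The log2 deviation of Dbp minus that of Arntl ran from -0.15 to 2.89 in TG trained mice (median 1.78), from -1.11 to 1.20 in TG untrained mice (median -0.92), from -1.66 to 2.63 in WT trained mice (median -0.45) and from -1.92 to -0.83 in WT untrained mice (median -1.18). TGT-128 at 2.89 and wtt-137 at 2.63 stood highest. Every TG trained mouse lay above every WT untrained mouse on this measure, while both other groups spanned much of the range. How often probe sets, or differences of probe sets, separate those groups was not computed, so this too is a description.

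The 8 tested genes, 1 probe set each, form 28 pairs. The group means were removed, so that differences between groups played no part. Then 1 pair passed an adjusted permutation p of 0.05, Arntl with Dbp in opposite directions (adjusted p = 0.0174). By Spearman correlation this pair did not pass (adjusted permutation p = 0.121). Before adjustment 6 pairs had a permutation p under 0.05. Because the Dbp levels form 2 sets, no r over all mice is given for it. Within these sets the group means were not removed and mice were permuted regardless of group, so differences between groups enter the next values. In the 7 mice of the upper set Arntl and Dbp had r = -0.58 (rho = -0.61, exact permutation p = 0.0821, adjusted 0.555 over 14 such relations; r = -0.21 without the 2 farthest mice). In the 13 mice of the lower set r was -0.45 (rho = -0.34, permutation p = 0.119, adjusted 0.555; r = -0.27 without the 2 farthest). None of the 14 relations of Dbp to another member within a set passed after adjustment.

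The other pairs with Arntl that passed before adjustment were Tef (r = -0.62, rho = -0.66, permutation p = 0.00991, adjusted 0.139; r = -0.57 without the 2 farthest mice) and Nr1d1 (r = 0.56, rho = 0.50, permutation p = 0.0326, adjusted 0.224; r = 0.45 without them). Nr1d2 went with Per1 (r = 0.56, rho = 0.45, adjusted p = 0.224 by permutation; r = 0.50 without the 2 farthest) and against Clock (r = -0.54, rho = -0.50, adjusted p = 0.224 by permutation; r = -0.44) and Per3 (r = -0.51, rho = -0.47, adjusted p = 0.224 by permutation; r = -0.32). None of these passed after adjustment. The number of pairs that passed was 0 without TGT-132, WTT-129, wtt-137, WTT-141 or WTT-144 in turn, and 2 without TGT-128 or TGUT-146.

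Other genes of the clock that the list of members leaves out were read in the same mice. Of 16 such genes, 12 were on the array and 9 were tested, with 18 probe sets. For training averaged over genotypes 1 of the 18 passed, a share close to the 4.99% called over all probe sets: Usp2 1417169_at, a deubiquitinase and clock output, rose by 0.69 ± 0.19 log2 (SE; limma adjusted p = 0.0403, with 1 empty cell in a TG untrained mouse), and the other Usp2 probe set gave 0.65 ± 0.25 (adjusted p = 0.142). By the brightest tested probe set, 3 of the 9 genes had positive and 6 negative training differences, with a median of -0.07 against 0.00 over all genes. Of the transgene comparisons none was called for these genes. Nfil3, which competes with Dbp and Tef for D-boxes, gave -0.44 ± 0.15 for training (adjusted p = 0.0993).

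Within groups, several of these genes went up and down with Arntl from mouse to mouse. Rora, the receptor that activates Arntl, had r between 0.79 and 0.85 on its 3 probe sets (rho 0.84 to 0.87, adjusted permutation p up to 0.00350 over 17 relations). The casein kinase gene Csnk1e, whose product marks Period proteins for decay, had r = 0.83 and 0.89 (rho = 0.73 and 0.86, adjusted permutation p = 0.00350 and 0.00227), and Cry2, a repressor that acts with the Period proteins, r = 0.78 (rho = 0.76, adjusted permutation p = 0.00459). Without the 2 mice farthest in level these r stayed between 0.68 and 0.82. They share arrays with Arntl, and r was above 0.7 for 3.75% of 8052 other genes and below -0.7 for 1.18%. Csnk1d disagreed between its probe sets, with r from -0.11 to 0.64.

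Of 8 known rhythmic outputs in muscle, all were tested, and Ucp3, a mitochondrial carrier, was the one called for training, with 2 of the 12 probe sets of these genes against 4.99% of all: its probe sets fell by 0.54 ± 0.15 (SE; limma adjusted p = 0.0470) and by 0.85 ± 0.22 (adjusted p = 0.0354). Pdk4, the kinase that shuts off pyruvate oxidation, gave -0.69 ± 0.21 (adjusted p = 0.0594), and Wee1, a cell cycle kinase driven by the clock in liver, 0.06 ± 0.05 (adjusted p = 0.533). The median over the 8 genes was 0.08, against 0.00 over all genes, with 5 positive and 3 negative.

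Genes known to respond to glucocorticoids, hormones that themselves follow a daily rhythm, moved with Arntl between mice. Of 12 such genes 11 were on the array and tested; averaged over genotypes all 11 had a negative training difference, with a median of -0.45 against 0.00 over all genes, and 1 of their 24 probe sets was called, a share no higher than the 4.99% of all probe sets, Klf9 1456341_a_at at -0.41 ± 0.11 (SE; limma adjusted p = 0.0341). Cebpd 1423233_at gave -0.86 ± 0.27 (adjusted p = 0.0688) and Fkbp5 1448231_at -0.45 ± 0.20 (adjusted p = 0.212). The mean deviation of the 11 genes ran from -0.72 to -0.37 in TG trained mice, from -0.35 to 0.58 in TG untrained mice, from -0.71 to 0.60 in WT trained mice and from -0.05 to 0.59 in WT untrained mice; wtt-137, with low Arntl and high Dbp, held the -0.71.

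After removal of the group means this level had r = 0.92 with Arntl across the 20 mice (rho = 0.93, permutation p = 2e-05, adjusted 0.00026 over 13 relations; r = 0.88 without the 2 farthest mice). It also passed with Per3 1421087_at (r = -0.59, rho = -0.55, adjusted permutation p = 0.0471; r = -0.54 without the 2 farthest) and with both Dbp probe sets, for which no r is given. Nr1d1 (r = 0.60, rho = 0.54, adjusted permutation p = 0.0633; r = 0.57) and Tef 1424175_at (r = -0.49, rho = -0.54, adjusted permutation p = 0.0702; r = -0.41) did not pass. The share of all probe sets that pass with this level was not computed, so these relations mark no trait of clock genes. The first principal component of the tested probe sets without an empty cell, with 32.4% of the variance between arrays, had r = -0.85 with Arntl in the same way (rho = -0.83, adjusted permutation p = 0.00195; r = -0.79 without the 2 farthest). The sign of a component is arbitrary. The clock probe sets are themselves among those that make up this component, and the share of all probe sets that pass with it was not computed. Of the 13 clock probe sets 7 passed, a count that therefore marks no trait of clock genes. Besides Arntl and both of Dbp they were Tef 1424175_at (r = 0.57, rho = 0.56, adjusted permutation p = 0.0181; r = 0.62 without the 2 farthest), Clock 1418659_at (r = -0.57, rho = -0.58, adjusted permutation p = 0.0165; r = -0.69), Nr1d2 1416959_at (r = 0.60, rho = 0.51, adjusted permutation p = 0.0175; r = 0.50) and Per3 1421087_at (r = 0.65, rho = 0.60, adjusted permutation p = 0.0118; r = 0.48). Arntl and Clock 1418659_at, called for training, and Tef 1424175_at, called for the transgene, are thus among them. So are both Dbp probe sets, Nr1d2 1416959_at and Per3 1421087_at, which were not called. The other called Tef probe set, 1450184_s_at, did not pass (r = 0.07, rho = 0.09, adjusted permutation p = 0.795, r = 0.43 without the 2 farthest). Nor did Clock 1418660_at (r = 0.27, rho = 0.25, adjusted permutation p = 0.340), which was not called. The component ran from 7.56 to 18.2 in TG trained mice, from -12.9 to 12.7 in TG untrained mice, from -16.4 to 19.7 in WT trained mice and from -19.0 to -0.73 in WT untrained mice. It and the glucocorticoid-responsive level are read from the same arrays, and how far they overlap was not computed. The highest component, 19.7 in wtt-137, came with a level of -0.71, and the lowest, -19.0 in WTUT-142, with 0.51. In TGUT-146 both were positive, 12.7 and 0.25. The part of either measure, and of the hour of sampling, in the differences of the clock genes was not tested.

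**Figure D4:**
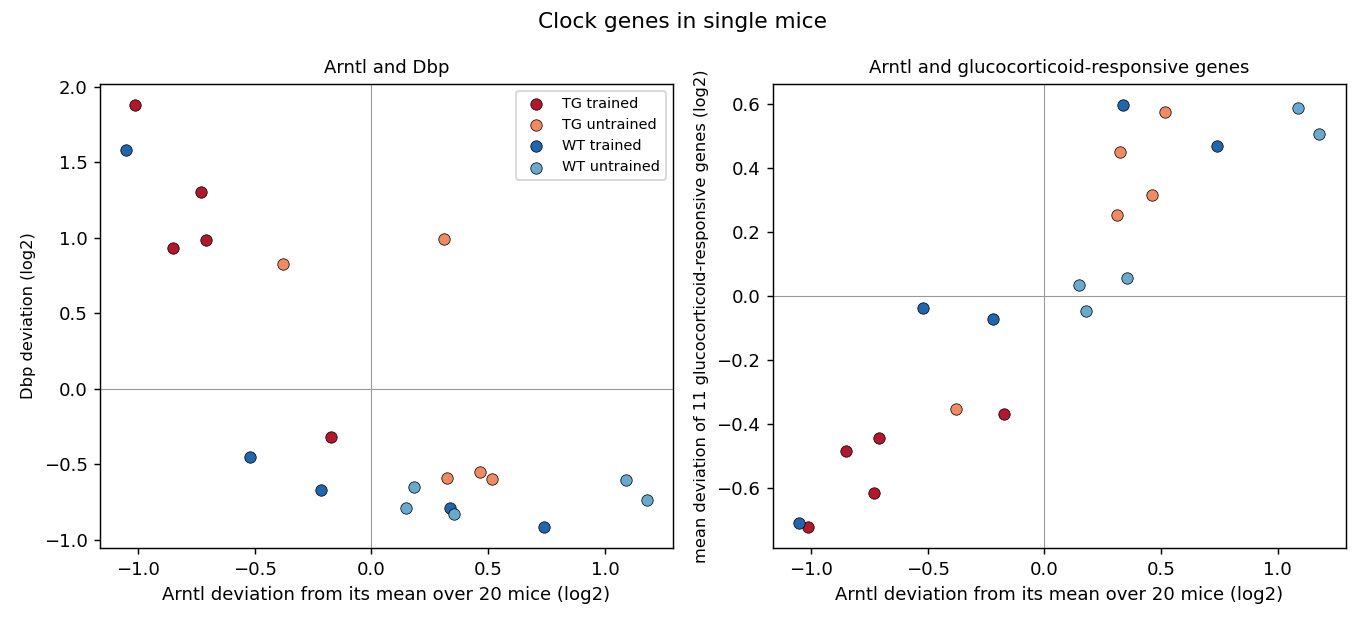
Deviation of Dbp 1418174_at (left) and mean deviation of 11 glucocorticoid-responsive genes (right) against the deviation of Arntl, all in log2 units around the mean of 20 mice; each point is a mouse, coloured by group. On the left 7 mice form an upper set apart from 13 others, and on the right the glucocorticoid-responsive level is higher in mice with higher Arntl (r = 0.92 within groups).

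The genes most like Arntl from mouse to mouse, by Pearson correlation of the same group-centred log2 values over 20 mice and 8052 other genes, were Ampd3 (r = 0.93), Tfcp2l1 (0.90), Zfyve21 (0.90), Ino80 (0.90) and Ddx5 (0.90). Those most like Per1 were Alpk2 (r = 0.92), Rsrc2 (0.88), Stag2 (0.86), Psmd14 (0.85) and Osgep (0.84). Those most like Dbp, in which the same 2 sets of mice weigh heavily, were Mrtfa, Smox, Sypl2, Lman2 and Pitpnm2. These are descriptions over single mice, since every point shares its array between the genes compared. Ampd3, an AMP deaminase, gave a training difference of -0.97 ± 0.37 log2 (SE; limma adjusted p = 0.135), of like size to that of Arntl but with nearly 2 times its SE.

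Markers of other cell types were read beside these values. The summed intensity of 4 endothelial markers ran from 1008 to 1300 in TG trained mice, 1109 to 1476 in TG untrained mice, 1243 to 1425 in WT trained mice and 1125 to 1735 in WT untrained mice. For the transgene averaged over training, 3 of these 4 markers had a negative and 1 a positive difference, with a median of -0.10 log2. Only 1 was called, against 1.23% of all probe sets: Cdh5, an endothelial adhesion gene, fell by 0.30 ± 0.06 (SE, limma adjusted p = 0.0221). The 3 adipocyte markers present summed to 2220 to 10179 in TG trained, 4064 to 5782 in TG untrained, 3413 to 9415 in WT trained and 2668 to 8418 in WT untrained mice. The 4 macrophage markers summed to 1190 to 1481, 1109 to 1275, 1366 to 1677 and 1175 to 1373 in the same order. The 2 nerve markers present ran from 507 to 819 over all groups and the 3 liver markers from 634 to 782. Their part in the clock gene differences was not tested.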

How the data were processed

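The deposited table holds 1 intensity per probe set and array on a linear scale, up to 19078, for 22690 probe sets. Read from the values, the authors had scaled the arrays to each other (array medians 157 to 175); how probes were summarised and scaled, and why 1745 cells are empty, is not given in the sources used here. Empty cells were treated as missing. A constant of 66.7 (20th percentile of all values) was added before log2, so changes of dim genes are understated. Leaving out 64 control probe sets, a filter on the mean over all arrays at the 40th percentile (about 126 in intensity) left 13576 of 22626. Symbols came from the platform annotation: 20380 of these probe sets carry 1 symbol, 691 several and 1555 none.

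The test was that of limma (version 3.58.1, run in R 4.3.3), fitting 4 group means together with a variance trend and 7 contrasts; tests are two-sided, with Benjamini-Hochberg adjustment over 13576 probe sets per contrast, and a probe set is called at an adjusted p under 0.05. The fit was tested on simulated data. Single values were also compared by exact permutation (252 splits of 5 against 5). Relations between genes used residuals from the group means, 100000 permutations within groups, and 1 probe set per gene, the brightest tested; those within the sets of Dbp levels used values with the group means left in and permutations regardless of group (all orderings for the 7 mice). The members, the lists of other clock, output and glucocorticoid-responsive genes, the naming rule (all members, the list members that pass or that a result turns on, and the 5 genes most like Arntl, Dbp and Per1) and the tests were chosen with earlier results of these data known. The relations over all probe sets and within the sets of Dbp levels were added after the data were seen. The alternatives were other scalings, constants, filters and variance models, array weights, the compared groups alone, leaving out the 2 arrays with over 300 empty cells, Spearman correlation, additive residuals and leaving out each mouse. The table names no genome build; promoter windows are RefSeq's, in GRCm38.p6.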

Additional observations from a re-analysis of the deposited data

Results flagged for a closer look

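In 4 of 76 combinations of a clock probe set and a group, the highest or lowest mouse stood apart from the others by more than Dixon's limit allows, which is 0.71 of the group's range for 5 mice and 0.829 for the 4 WT trained mice with a value of Per2 1417602_at; chance gives about 1 in 20. Arntl in TG untrained mice was flagged by TGUT-145, whose 133.2 intensity units lay 0.773 of the range (log2) below the nearest mouse. Dbp in WT trained mice was flagged by wtt-137 on both probe sets, with 727 units and a gap of 0.815 on 1418174_at, and 515 units and a gap of 0.894 on 1438211_s_at. Per1 in TG trained mice was flagged by TGT-143, with 748 units and a gap of 0.764.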

How the results depend on the processing

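No paired analysis was possible because the groups share no mouse numbers. The number of clock probe sets called for training averaged over genotypes was 2. It became 6 with array weights, 3 after quantile normalization (with Per3 1421087_at at 0.13, limma adjusted p = 0.0467), 1 with arrays centred on their medians, 0 with a filter at the 60th percentile (which leaves Arntl and Clock untested), 1 without a filter and 0 without the 2 arrays rich in empty cells, and ran from 0 to 3 with single mice left out. For the transgene averaged over training it was 2, became 6 with array weights and 5 without those 2 arrays, and ran from 2 to 5 with single mice left out (5 without wtt-137). For training in transgenic mice it was 0, became 5 with array weights and ran from 0 to 1. For the transgene in trained mice it was 0, became 2 with array weights and ran from 0 to 2. For the transgene in untrained mice it was 1, became 2 with array weights and 0 when only the compared groups were fitted, and ran from 0 to 2. It stayed at 0 for training in wild-type mice and for the interaction in all alternatives. The 1 pair of genes that passed became 0 without those 2 arrays and 0 by Spearman correlation, and ran from 0 to 2. The cause of these shifts was not tested. With array weights, which give less weight to arrays that fit the model poorly, the trained minus untrained difference of Dbp 1418174_at was 0.86 (limma adjusted p = 0.0246) and its transgenic difference 1.02 (adjusted p = 0.0306).

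Direction changed only for differences near 0. The transgenic difference of Clock 1418659_at was 0.02, -0.0092 without the 2 arrays rich in empty cells and -0.0071 to 0.092 with single mice left out. That of Nr1d1 was 0.06, and -0.0072 without those arrays. That of Per1 ran from -0.036 to 0.088, and the training difference of Nr1d2 1416959_at from -0.14 to 0.041, with single mice left out. Both Tef calls for the transgene averaged over training held under every alternative run.

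Over all probe sets, limma called 678 for training averaged over genotypes, against 2716 with array weights, 409 with centred arrays, 448 without a filter, 409 without the 2 arrays and 279 (without TGT-128) to 1285 (without TGUT-145) with single mice left out. It called 167 for the transgene averaged over training, against 617 with array weights, 111 without a filter, 399 without the 2 arrays and 79 (without WTT-141) to 525 (without wtt-137). For training in transgenic mice 42 were called, 18 higher and 24 lower, against 153 (93 higher and 60 lower) after quantile normalization, 11 (2 and 9) with centred arrays, 6 without a filter, 1 with the compared groups alone, 65 to 69 without the variance trend, with robust variance or with a constant of 1, 99 with the stricter filter, 125 without the 2 arrays, 2364 with array weights and 2 (without TGT-128, TGT-140, TGUT-131 or TGUT-139) to 764 (without TGUT-145). For the transgene in untrained mice 15 were called, against 0 with the compared groups alone, 95 with array weights and 2 (leaving out either WTUT-135, WTUT-138 or TGUT-139) to 26 (without TGUT-145). For the transgene in trained mice 7 were called, against 26 with the compared groups alone, 13 with the stricter filter, 12 without the 2 arrays, 900 with array weights and, with single mice left out, 2 (on removal of WTT-141, TGT-143 or TGT-133) to 1.05% of all probe sets (without wtt-137), where 7 are 0.0516%.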
